A study of Mus musculus with 12 samples.

Results

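The 33 genes described here are transcripts for which astrocytes, the star-shaped glia of brain and cord, are known. They were chosen as a list of names, with earlier results of these data known. All 33 were found by name among the 49585 genes of the deposited tables. They were followed in mouse spinal cord after injury, through the RNA of nuclei captured for microglia, the resident macrophages of the cord. The 12 libraries fall into 4 groups of 3 from C57BL/6 mice: sham, labelled with 7 days, and spinal cord injury after 3, 7 and 14 days. Each library pooled the cords of 3 animals, cut 5 mm to either side of the injury. Nuclei were banded on an iodixanol gradient and bound to magnetic beads with an antibody against GFP, and the RNA was amplified before the libraries were made. Which allele carries GFP, and in which cells it is on, is not given in the sources used here. No label says that pools were processed independently, so p-values measure the spread between pools, part of which may be technical.

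Astrocytes take up glutamate, GABA and potassium released by neurons, supply glutamine and lactate in return, and wrap blood vessels with endfeet rich in the water channel aquaporin 4. After injury to the cord they become reactive: they thicken, raise the filament protein GFAP and form a border around the lesion. Several of the genes are also used by other cells, such as Glul and S100b by oligodendrocytes, Bcan and Ncan by oligodendrocyte precursors or neurons, and Gja1 by vascular and meningeal cells.

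In a capture of microglial nuclei these transcripts were a minor part. Total counts ran from 4003480 to 10670804 per library, and the 33 genes together took 0.127% to 0.638% of them. On the per-length scale (RPKM, counts scaled by gene length and library size), the median of the 33 genes was 5.25 RPKM in the sham group, 6.30 RPKM at 3 days, 3.47 RPKM at 7 days and 8.21 RPKM at 14 days. The median of 12 microglia markers on the same scale was 95.7 RPKM in sham, 79.4 RPKM at 3 days, 101 RPKM at 7 days and 74.8 RPKM at 14 days. None of the 33 genes was at 0 in all libraries of a group. The highest of them were Slc1a3 with 113 RPKM and Glul with 81.3 RPKM. In such bulk samples the number of astrocyte nuclei, the RNA per nucleus and RNA from other cells cannot be told apart.

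Some libraries stood apart from others of their group. Replicate 3 was the highest 3-day library for 27 of the 33 genes, a place it took in 36.5% of all genes tested. Sham replicate 4 was the highest of the 3 sham libraries for 22 of the 33 genes, against 40.8% of all genes tested. Sham replicate 2 was the lowest for 25, against 35.1% of all genes tested. The level in sham replicate 4 over the mean of the other 2 sham libraries had a median of 1.75 over the 33 genes, against 0.999 over all genes tested. It was above 2 for 15 of them (45.5%, against 14.1% of all genes). The ratio reached 9.20 for Aqp4, 6.53 for Ncan, 6.08 for Prex2 and 5.98 for Slc1a3, but was 0.903 for Gja1, 0.992 for Aldoc, 1.06 for S100b and 1.18 for Aldh1l1. Each of the 33 genes that rose or fell against sham is therefore given with and without sham replicate 4. Leave-one-out fits are the 12 repeats of the test that each left out 1 library.

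**Figure D1:**
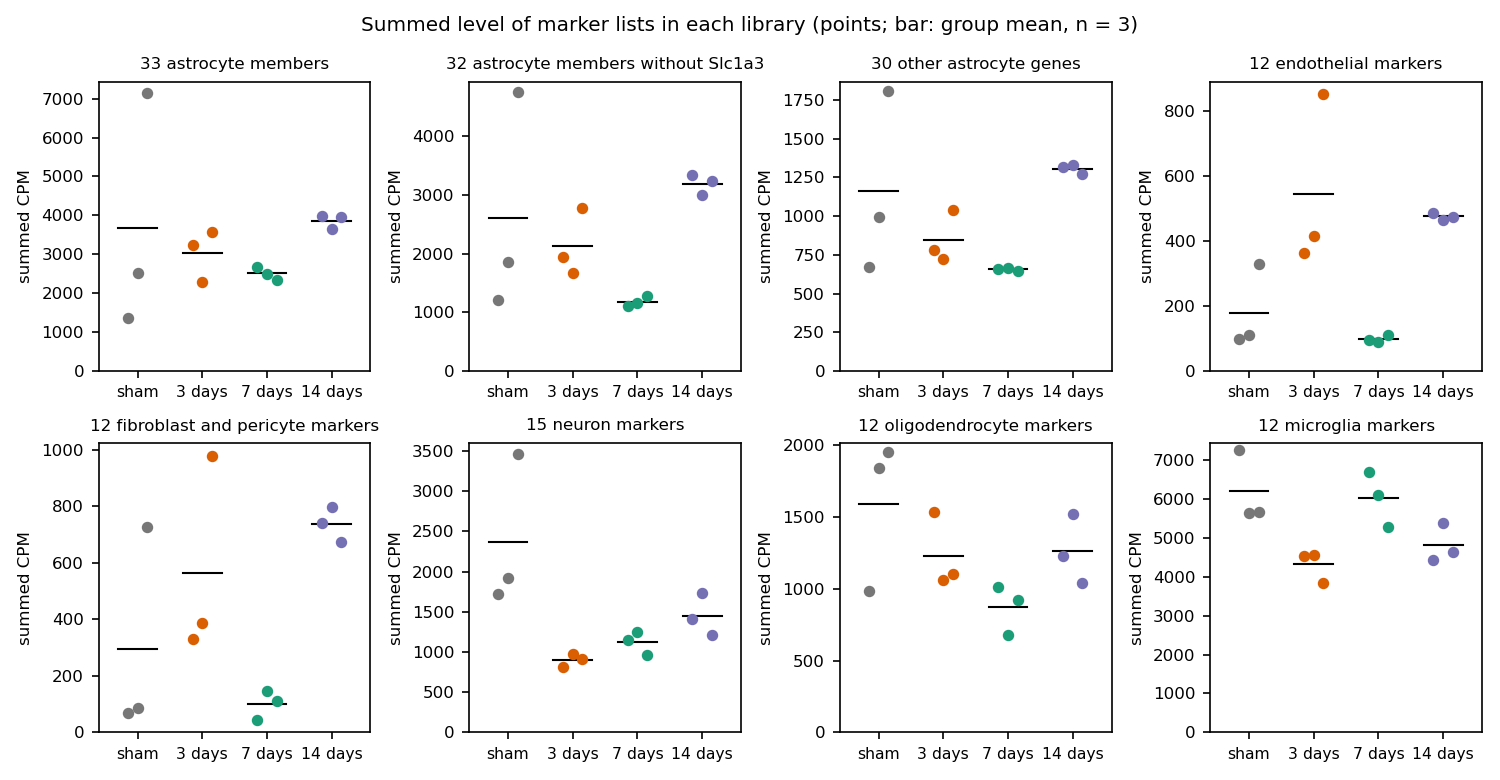
Summed level (CPM) of marker lists in each of 12 libraries, by group; points are libraries and bars are group means. The 32 astrocyte genes without Slc1a3 sum to 3000 to 3343 CPM at 14 days and to 1111 to 1277 CPM at 7 days, and sham replicate 4 sits far above the other sham libraries for astrocyte, neuron, endothelial and fibroblast or pericyte lists.

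The time course had its low point at 7 days for most of the genes, while the high point differed between them. Levels are given as CPM, the counts of a gene scaled by library size and composition, and are compared between groups, not between genes. The lowest group mean lay at 7 days for 28 of the 33 genes. The highest lay at 14 days for 16 genes, at 3 days for 10, in sham for 6 and at 7 days for 1, the glutamate transporter Slc1a3. The order of group means was not counted over all genes, so these counts do not show a pattern particular to the list. The summed level of the 33 genes was 1358, 2507 and 7150 CPM in the sham libraries, 3226, 2290 and 3564 CPM at 3 days, 2680, 2497 and 2336 CPM at 7 days and 3972, 3642 and 3948 CPM at 14 days. Slc1a3 alone made up 11.2% to 33.5% of the members' counts in sham libraries, 21.9% to 39.6% at 3 days, 45.3% to 58.5% at 7 days and 15.8% to 17.8% at 14 days. Without it the sum was 1206, 1859 and 4756 CPM in the sham libraries, 1949, 1678 and 2782 CPM at 3 days, 1111, 1154 and 1277 CPM at 7 days and 3343, 3000 and 3246 CPM at 14 days, so that the 3 libraries at 7 days lay below all those at 3 and 14 days. These sums are descriptions, with no test.

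Of the 33 genes, 32 had enough counts to be tested. Steap4, a metalloreductase of the plasma membrane that is induced in reactive glia, did not pass the filter on low counts, with 0 to 16 counts per library. A gene is said to have risen, fallen or changed where its edgeR adjusted p was below 0.05 (quasi-likelihood F test, Benjamini-Hochberg over the 18451 genes that passed). Across the 4 groups 20 of the 32 genes differed, or 62.5%, while 26.4% of all genes tested did. Because the genes were chosen with earlier results of these data known, such shares describe the list and do not test it.

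Against sham, 4 of 32 rose and 1 fell at 3 days, a comparison in which 10.9% of all genes rose and 9.17% fell (20.0% in all). At 7 days 0 rose and 8 fell, with 4.61% of all genes rising and 4.67% falling (9.28% in all). At 14 days 8 rose and 0 fell, with 5.02% rising and 4.79% falling (9.82% in all). The members' median log2 fold change was 0.14 at 3 days, -0.94 at 7 days and 0.10 at 14 days, and the median over all genes tested lay within 0.05 of 0 in every comparison.

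Between times, 0 of 32 rose and 11 fell at 7 days against 3 days, where 5.85% of all genes rose and 7.52% fell (13.4% in all). In the 14-day libraries against those of 7 days 10 rose and 0 fell, where 1.35% of all genes rose and 0.835% fell (2.19% in all). The 14-day libraries against those of 3 days had 3 that rose and 1 that fell, where 2.17% of all genes rose and 5.14% fell (7.31% in all). The median log2 fold change of the 32 genes was -1.13 at 7 days against 3 days, 1.44 at 14 days against 7 days and 0.30 at 14 days against 3 days. Of the 32 values at 14 days against 7 days, 30 were positive; Slc1a3 and Cldn10 were the other 2.

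**Figure D2:**
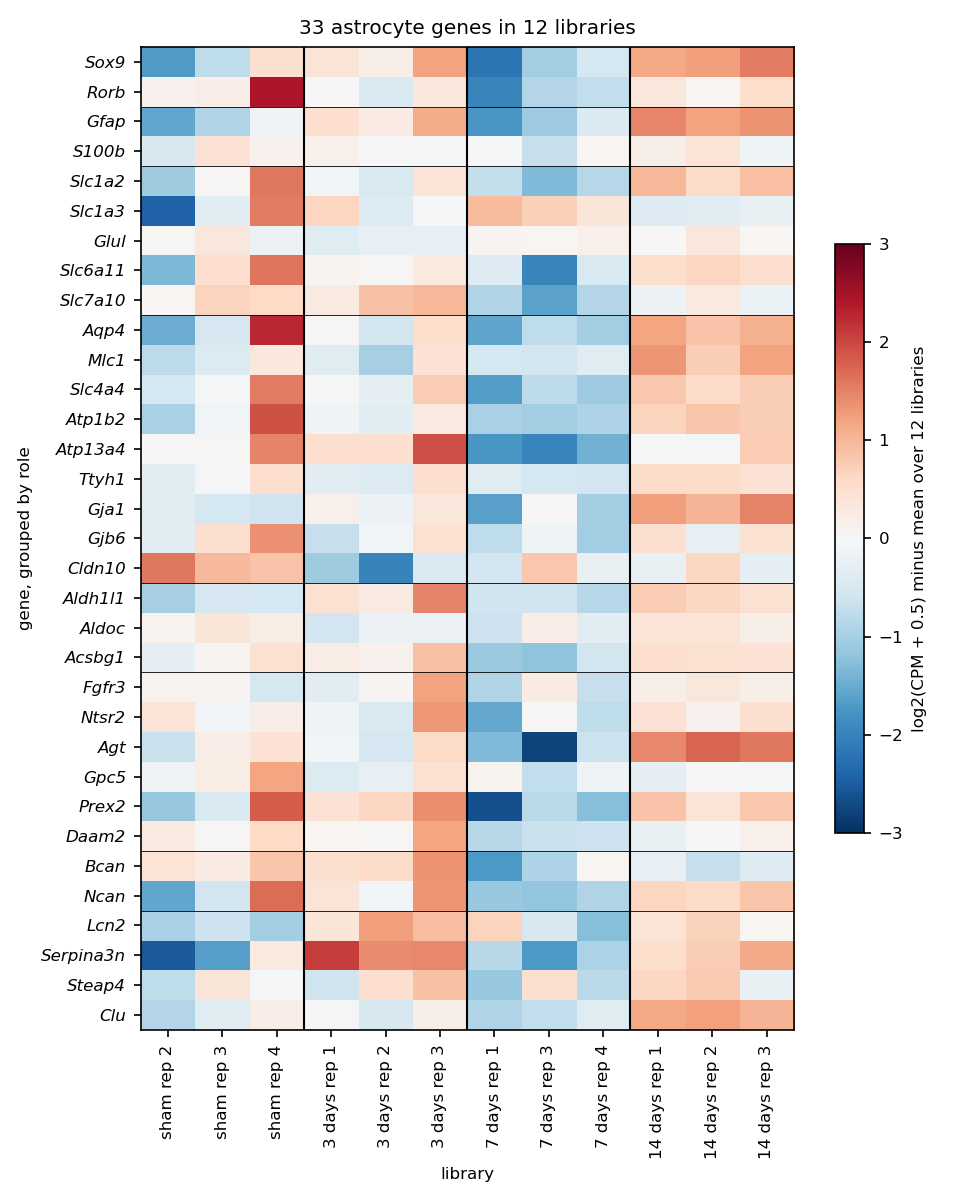
Level of each of the 33 genes in the 12 libraries, as log2(CPM + 0.5) minus the gene's mean over all libraries (red above, blue below), with genes in rows by role and libraries in columns by group. The 7-day columns are blue in most rows and the 14-day columns red, while sham replicate 4 differs from sham replicates 2 and 3 in many rows.

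Of the 10 genes higher at 14 days than at 7 days, 4 are shown here with the bases around their RefSeq start (build GRCm38.p6). Each of the 4 holds a short motif of a factor known from glia. They were chosen by hand, and Atp13a4, also among the 10 and with an AP-1 motif, is not shown. The rest of the 10, Sox9, Mlc1, Slc4a4, Ttyh1 and Clu, are not among the genes found with a searched motif. RefSeq promoters of 300 bases, 250 before to 50 after the start, were found for 28 of the 33 genes (35 promoters). For 25 of the 35 the bases after the start lay in an annotated transcript of the gene. The windows printed below for Gja1 and Acsbg1 lie wholly before the annotated gene. Its 5′ end is at chr10:56377330 for Gja1 and at chr9:54661870 for Acsbg1. The motif of STAT factors, which act in reactive astrocytes, was searched as TTCNNNGAA, which reads the same on both strands. It was in a promoter of 7 of 28 genes (25.0%), namely Acsbg1, Agt, Aldoc, Gfap, Ntsr2, Slc1a3 and Steap4, and in 9.6% of all genes of the table. With all libraries Aldoc, Ntsr2 and Slc1a3 passed no comparison, and Steap4 was not tested. The motif of AP-1 was searched as TGANTCA on both strands and was found for 3 of 28 genes (10.7%), namely Atp13a4, Gja1 and Rorb, against 9.0% of all genes. A nuclear factor I motif, TTGGCA on either strand, was found for 7 of 28 genes (25.0%, against 16.1%). A SOX motif, ACAATG on either strand, was found for 1 of 28 genes, Atp13a4 (3.6%, against 14.3%). A match describes letters and is not a binding site. The windows below run from 200 bases before to 10 after the start, 5′ to 3′ on the gene's strand, with the motif in capitals: the STAT motif begins 2 bases before the start in Gfap, 172 in Agt and 26 in Acsbg1, and the AP-1 motif 19 in Gja1.
Gfap, chr11:102897191-102897400, minus strand: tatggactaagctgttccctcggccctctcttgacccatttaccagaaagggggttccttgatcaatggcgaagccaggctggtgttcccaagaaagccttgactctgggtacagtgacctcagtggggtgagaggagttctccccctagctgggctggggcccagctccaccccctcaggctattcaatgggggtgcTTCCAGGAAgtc
Agt, chr8:124569697-124569906, minus strand: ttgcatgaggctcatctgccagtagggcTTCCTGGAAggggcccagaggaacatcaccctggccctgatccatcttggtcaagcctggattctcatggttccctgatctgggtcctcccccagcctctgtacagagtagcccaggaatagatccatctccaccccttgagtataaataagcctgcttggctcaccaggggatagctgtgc
Acsbg1, chr9:54661876-54662085, minus strand: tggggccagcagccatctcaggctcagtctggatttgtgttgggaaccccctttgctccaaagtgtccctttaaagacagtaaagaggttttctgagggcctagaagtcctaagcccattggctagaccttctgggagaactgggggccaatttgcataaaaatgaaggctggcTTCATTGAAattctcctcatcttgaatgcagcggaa
Gja1, chr10:56377100-56377309, plus strand: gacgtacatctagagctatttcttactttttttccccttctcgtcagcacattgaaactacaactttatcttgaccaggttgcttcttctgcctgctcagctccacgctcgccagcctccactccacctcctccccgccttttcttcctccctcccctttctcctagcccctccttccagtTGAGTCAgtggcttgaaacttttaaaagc

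The transcription factors of the list are Sox9, which sets the glial fate and stays on in astrocytes, and Rorb, a nuclear receptor found in astrocytes and in some neurons. Sox9 (ENSMUSG00000000567) had 2.27, 4.80 and 12.04 CPM in sham, 11.2, 9.71 and 20.3 CPM at 3 days, 1.47, 3.87 and 5.75 CPM at 7 days and 19.6, 20.8 and 25.4 CPM at 14 days. The 14-day libraries were above all others except 3-day replicate 3, and the 7-day libraries were among the lowest. It rose at 14 days against sham (log2 fold change 1.84 ± 0.52 SE, edgeR adjusted p = 0.0367) and against 7 days (log2 fold change 2.52 ± 0.53 SE, edgeR adjusted p = 0.0265, kept in 7 of 12 leave-one-out fits). Sox9 fell at 7 days against 3 days (log2 fold change -1.86 ± 0.52 SE, edgeR adjusted p = 0.0309, kept in 8 of 12 leave-one-out fits). The rise over sham held in 6 of the 12 fits that each left out 1 library (adjusted p up to 0.124 in the others). Sox9 without sham replicate 4 had a log2 fold change of 2.66 ± 0.49 SE, edgeR adjusted p = 0.00202, at 14 days. Rorb (ENSMUSG00000036192) had 18.8, 19.9 and 94.3 CPM in sham, 17.3, 12.3 and 21.9 CPM at 3 days, 3.98, 9.16 and 10.2 CPM at 7 days and 22.00, 17.8 and 24.7 CPM at 14 days. Sham replicate 4 was far above every other library, and the 7-day libraries were lowest. Rorb fell at 7 days against sham (log2 fold change -2.47 ± 0.54 SE, edgeR adjusted p = 0.0127, kept in 11 of 12 leave-one-out fits), and without sham replicate 4 the log2 fold change was -1.29 ± 0.33 SE, edgeR adjusted p = 0.0286.

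Gfap, the intermediate filament of astrocytes, and S100b, a calcium-binding protein, took different courses. Gfap (ENSMUSG00000020932) had 51.6, 82.3 and 140.3 CPM in sham, 218, 183 and 337 CPM at 3 days, 45.9, 72.7 and 113 CPM at 7 days and 426, 355 and 392 CPM at 14 days. The libraries at 3 and 14 days were all above those of sham and 7 days, and the groups at 7 days and sham overlapped. It rose at 3 days against sham (log2 fold change 1.44 ± 0.35 SE, edgeR adjusted p = 0.0103) and at 14 days against sham (log2 fold change 2.10 ± 0.35 SE, edgeR adjusted p = 0.00216). Gfap without sham replicate 4 had a log2 fold change of 1.85 ± 0.33 SE, edgeR adjusted p = 0.000991, at 3 days and of 2.54 ± 0.34 SE, edgeR adjusted p = 0.000192, at 14 days. It fell at 7 days against 3 days (log2 fold change -1.67 ± 0.35 SE, edgeR adjusted p = 0.00797, kept in 11 of 12 leave-one-out fits). Gfap rose at 14 days against 7 days (log2 fold change 2.33 ± 0.36 SE, edgeR adjusted p = 0.0127, kept in 9 of 12 leave-one-out fits). The rise over sham at 14 days held in each of the 12 fits that left out 1 library, while that at 3 days was lost without 3-day replicate 3 (adjusted p up to 0.0655). S100b (ENSMUSG00000033208) had 30.7, 58.8 and 47.6 CPM in sham, 48.1, 43.7 and 42.2 CPM at 3 days, 41.5, 26.6 and 45.2 CPM at 7 days and 48.98, 57.7 and 39.4 CPM at 14 days. All 4 groups overlapped, and no comparison of S100b passed the threshold (smallest edgeR adjusted p = 0.488).

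Among the 5 genes of glutamate, GABA and amino acid handling, 2 fell at 7 days against sham and 0 rose in any comparison. Slc1a2 (ENSMUSG00000005089), the main glutamate transporter of the forebrain, had 226, 483 and 1412 CPM in sham, 445, 343 and 612 CPM at 3 days, 287, 189 and 260 CPM at 7 days and 949, 705 and 888 CPM at 14 days. The 7-day libraries lay below all those at 3 and 14 days but overlapped with sham, whose own 3 libraries differed widely. It fell at 7 days against sham (log2 fold change -1.52 ± 0.45 SE, edgeR adjusted p = 0.0464), a call that held in 2 of the 12 fits that each left out 1 library (adjusted p up to 0.277 in the others); without sham replicate 4 the log2 fold change was -0.53 ± 0.28 SE, edgeR adjusted p = 0.277. Slc7a10 (ENSMUSG00000030495), a carrier of small neutral amino acids including D-serine, had 3.33, 5.26 and 5.04 CPM in sham, 3.87, 6.22 and 6.82 CPM at 3 days, 1.47, 0.704 and 1.47 CPM at 7 days and 2.71, 3.97 and 2.67 CPM at 14 days. Its 7-day libraries were below those of every other group. It fell at 7 days against sham (log2 fold change -1.87 ± 0.46 SE, edgeR adjusted p = 0.0214, kept in 11 of 12 leave-one-out fits) and against 3 days (log2 fold change -2.21 ± 0.45 SE, edgeR adjusted p = 0.00704). The second of these calls held in each of the 12 fits that left out 1 library. Slc7a10 without sham replicate 4 had a log2 fold change of -1.79 ± 0.49 SE, edgeR adjusted p = 0.0384, at 7 days. In the annotation 17.9% of the exon bases of Slc7a10 overlap with exons of Lrp3 on the other strand.

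Slc1a3 (ENSMUSG00000005360), the glutamate transporter GLAST, had 152, 649 and 2394 CPM in sham, 1277, 612 and 782 CPM at 3 days, 1569, 1343 and 1059 CPM at 7 days and 629, 642 and 701 CPM at 14 days. Its lowest and highest values were both in sham, the 7-day libraries overlapped with those at 3 days and were all above those at 14 days. No comparison of Slc1a3 passed the threshold, with a log2 fold change of 0.32 ± 0.59 (SE) at 7 days against sham and -1.01 ± 0.60 at 14 days against 7 days. Without sham replicate 4 it rose at 7 days against sham (log2 fold change 1.72 ± 0.43 SE, edgeR adjusted p = 0.0239). Glul (ENSMUSG00000026473), the glutamine synthetase, had 272, 335 and 237 CPM in sham, 206, 226 and 225 CPM at 3 days, 282, 277 and 294 CPM at 7 days and 267, 336 and 279.6 CPM at 14 days. The 3-day libraries were lowest and the other 3 groups overlapped, and no comparison passed (smallest edgeR adjusted p = 0.114, at 3 days against sham). Slc6a11, a GABA transporter, had 8.10 to 102 CPM over the 12 libraries, and no comparison passed.

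The 9 genes of water, ion and junction handling gave 1 that fell at 3 days against sham, 3 that fell at 7 days against sham, 2 that rose at 14 days against sham and 5 that rose at 14 days against 7 days. Aqp4 (ENSMUSG00000024411), the water channel of astrocyte endfeet, had 74.2, 147 and 1018 CPM in sham, 216, 143 and 303 CPM at 3 days, 70.4, 124 and 103 CPM at 7 days and 477, 382 and 442 CPM at 14 days. Sham replicate 4 was the highest library, while all 14-day libraries were above those at 3 and 7 days and above the other 2 sham libraries. With all libraries no comparison of Aqp4 passed, and the log2 fold change was 0.07 ± 0.63 (SE) at 14 days and -0.90 ± 0.63 at 3 days against sham. Without sham replicate 4 it was 1.96 ± 0.32 SE, edgeR adjusted p = 0.000922, at 14 days and 0.97 ± 0.31 SE, edgeR adjusted p = 0.0348, at 3 days, the second with its sign turned round. Mlc1 (ENSMUSG00000035805), a membrane protein of endfeet that is mutated in a human leukodystrophy, had 3.78, 5.03 and 8.68 CPM in sham, 5.24, 3.19 and 9.41 CPM at 3 days, 4.61, 4.58 and 5.21 CPM at 7 days and 18.1, 11.9 and 16.7 CPM at 14 days. The 14-day libraries were above all others. Mlc1 rose at 14 days against sham (log2 fold change 1.45 ± 0.41 SE, edgeR adjusted p = 0.0358, kept in 7 of 12 leave-one-out fits), against 7 days (log2 fold change 1.69 ± 0.41 SE, edgeR adjusted p = 0.0448, kept in 5 of 12 leave-one-out fits) and against 3 days (log2 fold change 1.36 ± 0.40 SE, edgeR adjusted p = 0.0495). The last of these calls held in 3 of the 12 fits that each left out 1 library (adjusted p up to 0.179 in the others). Mlc1 without sham replicate 4 had a log2 fold change of 1.82 ± 0.42 SE, edgeR adjusted p = 0.00874, at 14 days.

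Slc4a4 (ENSMUSG00000060961), a sodium bicarbonate cotransporter, had 59.3, 83.2 and 253 CPM in sham, 84.7, 70.1 and 145 CPM at 3 days, 26.4, 49.3 and 39.9 CPM at 7 days and 150.5, 127 and 143 CPM at 14 days. The 7-day libraries were below all others. Slc4a4 fell at 7 days against sham (log2 fold change -1.76 ± 0.43 SE, edgeR adjusted p = 0.0219, kept in 9 of 12 leave-one-out fits) and against 3 days (log2 fold change -1.38 ± 0.43 SE, edgeR adjusted p = 0.0461, kept in 3 of 12 leave-one-out fits). Slc4a4 rose at 14 days against 7 days (log2 fold change 1.86 ± 0.43 SE, edgeR adjusted p = 0.0408, kept in 5 of 12 leave-one-out fits). Slc4a4 without sham replicate 4 had a log2 fold change of -0.89 ± 0.28 SE, edgeR adjusted p = 0.0712, at 7 days. Atp1b2 (ENSMUSG00000041329), a glial beta subunit of the sodium pump, had 95.5, 177 and 706 CPM in sham, 176, 149 and 225 CPM at 3 days, 96.2, 91.4 and 99.4 CPM at 7 days and 299, 336 and 316 CPM at 14 days. The groups at 14 days and 7 days did not overlap, yet sham overlapped with both. It fell at 7 days against sham (log2 fold change -1.77 ± 0.48 SE, edgeR adjusted p = 0.0349, kept in 8 of 12 leave-one-out fits), and without sham replicate 4 the log2 fold change was -0.51 ± 0.22 SE, edgeR adjusted p = 0.173. Atp13a4 (ENSMUSG00000038094), a P-type ATPase, had 9.54, 9.83 and 27.99 CPM in sham, 13.9, 13.8 and 38.4 CPM at 3 days, 2.51, 2.11 and 3.21 CPM at 7 days and 9.64, 9.35 and 16.7 CPM at 14 days. Its 7-day libraries were below those of every other group. Atp13a4 fell at 7 days against sham (log2 fold change -2.55 ± 0.53 SE, edgeR adjusted p = 0.00952) and against 3 days (log2 fold change -3.07 ± 0.53 SE, edgeR adjusted p = 0.00323), and each of these calls held in each of the 12 fits that left out 1 library. Atp13a4 without sham replicate 4 had a log2 fold change of -1.87 ± 0.47 SE, edgeR adjusted p = 0.0247, at 7 days. It rose at 14 days against 7 days (log2 fold change 2.16 ± 0.53 SE, edgeR adjusted p = 0.0478), a call that held in 4 of the 12 fits that each left out 1 library (adjusted p up to 0.178 in the others).

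Ttyh1 (ENSMUSG00000030428), a membrane protein of the tweety family, had 67.4, 82.8 and 121 CPM in sham, 66.7, 62.96 and 119 CPM at 3 days, 65.4, 58.3 and 56.8 CPM at 7 days and 125, 125 and 115 CPM at 14 days. The 7-day libraries were below all those of sham and 14 days and overlapped with those at 3 days. It rose at 14 days against 7 days (log2 fold change 1.01 ± 0.25 SE, edgeR adjusted p = 0.0478), a call that held in 4 of the 12 fits that each left out 1 library (adjusted p up to 0.166 in the others). Gja1 (ENSMUSG00000050953), the connexin 43 of astrocyte gap junctions, had 11.8, 10.5 and 10.1 CPM in sham, 17.3, 13.7 and 19.5 CPM at 3 days, 4.61, 15.8 and 7.36 CPM at 7 days and 37.7, 31.6 and 44.3 CPM at 14 days. The 14-day libraries were above all others, and the sham libraries lay between 10.1 and 11.8 CPM. It rose at 14 days against sham (log2 fold change 1.80 ± 0.35 SE, edgeR adjusted p = 0.00498), against 7 days (log2 fold change 2.02 ± 0.35 SE, edgeR adjusted p = 0.0147) and against 3 days (log2 fold change 1.17 ± 0.33 SE, edgeR adjusted p = 0.0468, kept in 5 of 12 leave-one-out fits). The first held in each of the 12 fits that left out 1 library, and the second was lost without 7-day replicate 1, 14-day replicate 1 or 14-day replicate 3 (adjusted p up to 0.0755). Gja1 without sham replicate 4 had a log2 fold change of 1.74 ± 0.37 SE, edgeR adjusted p = 0.00553, at 14 days. Gjb6, the connexin 30 of the same junctions, had 6.82 to 38.4 CPM and passed no comparison. Cldn10 (ENSMUSG00000022132), a claudin, was near its limit of detection with 5.45, 3.43 and 3.08 CPM in sham, 0.456, 0 and 0.961 CPM at 3 days, 0.838, 2.99 and 1.20 CPM at 7 days and 1.21, 2.57 and 1.11 CPM at 14 days, or 11 to 36 counts per sham library and 0 to 10 per 3-day library. All sham libraries were above those of each injured group. Cldn10 fell at 3 days against sham (log2 fold change -2.91 ± 0.75 SE, edgeR adjusted p = 0.0143), and that call held in each of the 12 fits that left out 1 library. Cldn10 without sham replicate 4 had a log2 fold change of -3.09 ± 0.78 SE, edgeR adjusted p = 0.0109, at 3 days.

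Of the 3 metabolic enzymes, Aldh1l1, a folate enzyme used as a general astrocyte marker, rose early. Aldh1l1 (ENSMUSG00000030088) had 2.27, 3.43 and 3.36 CPM in sham, 7.06, 6.22 and 15.1 CPM at 3 days, 3.14, 3.17 and 2.54 CPM at 7 days and 8.89, 7.95 and 7.13 CPM at 14 days. The libraries at 3 and 14 days were above all those of sham and 7 days. It rose at 3 days against sham (log2 fold change 1.68 ± 0.40 SE, edgeR adjusted p = 0.00897) and at 14 days against sham (log2 fold change 1.42 ± 0.40 SE, edgeR adjusted p = 0.0368, kept in 7 of 12 leave-one-out fits). Aldh1l1 fell at 7 days against 3 days (log2 fold change -1.70 ± 0.39 SE, edgeR adjusted p = 0.0128, kept in 11 of 12 leave-one-out fits). The rise at 3 days was lost without 3-day replicate 3 (adjusted p up to 0.0794). Aldh1l1 without sham replicate 4 had a log2 fold change of 1.74 ± 0.44 SE, edgeR adjusted p = 0.0112, at 3 days and of 1.50 ± 0.45 SE, edgeR adjusted p = 0.0353, at 14 days. In the annotation 11.0% of its exon bases overlap with an antisense gene. Acsbg1 (ENSMUSG00000032281), an acyl-CoA synthetase, had 11.1, 14.6 and 19.04 CPM in sham, 16.2, 15.2 and 25.8 CPM at 3 days, 6.08, 5.63 and 9.23 CPM at 7 days and 19.7, 18.9 and 18.7 CPM at 14 days. Its 7-day libraries were below all others. Acsbg1 fell at 7 days against sham (log2 fold change -1.07 ± 0.31 SE, edgeR adjusted p = 0.0411, kept in 4 of 12 leave-one-out fits) and against 3 days (log2 fold change -1.44 ± 0.30 SE, edgeR adjusted p = 0.0079, kept in 11 of 12 leave-one-out fits). Acsbg1 rose at 14 days against 7 days (log2 fold change 1.44 ± 0.30 SE, edgeR adjusted p = 0.0267, kept in 7 of 12 leave-one-out fits). Acsbg1 without sham replicate 4 had a log2 fold change of -0.86 ± 0.30 SE, edgeR adjusted p = 0.103, at 7 days. Aldoc (ENSMUSG00000017390), the brain aldolase of glycolysis, had 61.8, 74.3 and 67.5 CPM in sham, 38.7, 51.4 and 50.9 CPM at 3 days, 37.3, 66.04 and 46.1 CPM at 7 days and 75.7, 77.4 and 65.3 CPM at 14 days. The 3-day libraries were below sham and 14 days, and no comparison of Aldoc between 2 groups passed (smallest edgeR adjusted p = 0.0891, at 14 days against 3 days).

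Of the 6 receptors, ligands and signalling genes, Agt rose late and Prex2 and Daam2 were low at 7 days. Agt (ENSMUSG00000031980), the precursor of angiotensin, had 3.94, 7.54 and 8.96 CPM in sham, 6.15, 4.40 and 9.90 CPM at 3 days, 2.30, 0.528 and 4.01 CPM at 7 days and 18.5, 22.9 and 20.5 CPM at 14 days. The 14-day libraries were above all others and the 7-day libraries lowest, with 7-day replicate 4 just above the lowest sham library. It rose at 14 days against sham (log2 fold change 1.62 ± 0.48 SE, edgeR adjusted p = 0.0429, kept in 5 of 12 leave-one-out fits) and against 7 days (log2 fold change 3.12 ± 0.51 SE, edgeR adjusted p = 0.0133), the largest log2 fold change of the 32 genes between these times. The rise over 7 days was lost without 7-day replicate 1, 7-day replicate 3, 14-day replicate 1 or 14-day replicate 2 (adjusted p up to 0.0744). Agt without sham replicate 4 had a log2 fold change of 1.86 ± 0.50 SE, edgeR adjusted p = 0.0218, at 14 days. Prex2 (ENSMUSG00000048960), an activator of the GTPase Rac, had 14.7, 23.6 and 116 CPM in sham, 44.6, 50.8 and 87.1 CPM at 3 days, 4.82, 18.5 and 13.2 CPM at 7 days and 59.8, 42.8 and 57.2 CPM at 14 days. It fell at 7 days against 3 days (log2 fold change -2.31 ± 0.62 SE, edgeR adjusted p = 0.0247, kept in 9 of 12 leave-one-out fits), with no overlap between the groups. Daam2 (ENSMUSG00000040260), a formin of the Wnt pathway, had 51.5, 43.4 and 64.1 CPM in sham, 44.2, 43.4 and 96.4 CPM at 3 days, 23.5, 26.2 and 27.1 CPM at 7 days and 36.2, 42.8 and 47.00 CPM at 14 days. Its 7-day libraries were below all others, and it fell at 7 days against sham (log2 fold change -1.04 ± 0.28 SE, edgeR adjusted p = 0.033, kept in 8 of 12 leave-one-out fits) and against 3 days (log2 fold change -1.26 ± 0.28 SE, edgeR adjusted p = 0.0113, kept in 10 of 12 leave-one-out fits). Daam2 without sham replicate 4 had a log2 fold change of -0.90 ± 0.28 SE, edgeR adjusted p = 0.0705, at 7 days. Ntsr2 (ENSMUSG00000020591), a neurotensin receptor, had 17.4, 12.3 and 15.1 CPM in sham, 12.1, 9.40 and 33.2 CPM at 3 days, 4.19, 13.4 and 7.49 CPM at 7 days and 17.8, 14.5 and 18.5 CPM at 14 days. The highest library was 3-day replicate 3, and no comparison of Ntsr2 passed. Fgfr3, a receptor of fibroblast growth factors, had 7.12 to 32.3 CPM and Gpc5, a cell-surface glypican, 2.46 to 10.6 CPM, and neither passed a comparison; 13.9% of the exon bases of Fgfr3 overlap with G630022F23Rik on the other strand.

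Bcan and Ncan encode brevican and neurocan, chondroitin sulphate proteoglycans of the extracellular matrix. Bcan (ENSMUSG00000004892) had 39.7, 35.2 and 53.2 CPM in sham, 41.7, 44.5 and 75.7 CPM at 3 days, 8.59, 15.3 and 30.8 CPM at 7 days and 25.02, 18.2 and 22.5 CPM at 14 days. The libraries at 7 and 14 days were below all those of sham and 3 days. It was the only 1 of the 32 genes that fell at 14 days against 3 days (log2 fold change -1.30 ± 0.37 SE, edgeR adjusted p = 0.0432). It also fell at 7 days against 3 days (log2 fold change -1.55 ± 0.37 SE, edgeR adjusted p = 0.0144, kept in 9 of 12 leave-one-out fits), and the call at 14 days against 3 days held in 4 of the 12 fits that each left out 1 library (adjusted p up to 0.244 in the others). Ncan (ENSMUSG00000002341) had 9.54, 19.2 and 93.8 CPM in sham, 37.8, 27.1 and 72.4 CPM at 3 days, 12.8, 12.5 and 15.1 CPM at 7 days and 45.4, 43.2 and 51.7 CPM at 14 days. Its 14-day libraries were above those at 7 days, but sham spanned all groups and no comparison of Ncan passed with all libraries. Without sham replicate 4 it was higher than sham at 3 days (log2 fold change 1.68 ± 0.36 SE, edgeR adjusted p = 0.00436) and at 14 days (log2 fold change 1.71 ± 0.37 SE, edgeR adjusted p = 0.0056).

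The reactive and acute-phase genes are the secreted siderophore carrier Lcn2, the protease inhibitor Serpina3n, the extracellular chaperone Clu and Steap4. Serpina3n (ENSMUSG00000021091) had 3.03, 5.94 and 24.4 CPM in sham, 84.3, 53.9 and 53.99 CPM at 3 days, 10.9, 5.63 and 10.03 CPM at 7 days and 28.6, 33.4 and 43.7 CPM at 14 days. The 3-day libraries were above all others, the 14-day libraries came next, and sham and 7 days overlapped. It rose at 3 days against sham (log2 fold change 2.59 ± 0.53 SE, edgeR adjusted p = 0.00356) and fell at 7 days against 3 days (log2 fold change -2.85 ± 0.53 SE, edgeR adjusted p = 0.00469). Serpina3n rose at 14 days against sham (log2 fold change 1.73 ± 0.52 SE, edgeR adjusted p = 0.0485). The first 2 of these calls held in each of the 12 fits that left out 1 library, while the third held in 1 of the 12 fits that each left out 1 library (adjusted p up to 0.163 in the others). Serpina3n without sham replicate 4 had a log2 fold change of 3.85 ± 0.38 SE, edgeR adjusted p = 6.97e-06, at 3 days and of 3.00 ± 0.37 SE, edgeR adjusted p = 9.83e-05, at 14 days, the 1 fit in which the call at 14 days held. Clu (ENSMUSG00000022037) had 14.99, 21.7 and 32.2 CPM in sham, 27.1, 20.02 and 31.5 CPM at 3 days, 14.7, 16.6 and 21.7 CPM at 7 days and 63.6, 66.2 and 57.7 CPM at 14 days. The 14-day libraries were above all others and the other 3 groups overlapped. Clu rose at 14 days against sham (log2 fold change 1.46 ± 0.27 SE, edgeR adjusted p = 0.00414), against 7 days (log2 fold change 1.82 ± 0.27 SE, edgeR adjusted p = 0.0127, kept in 9 of 12 leave-one-out fits) and against 3 days (log2 fold change 1.25 ± 0.27 SE, edgeR adjusted p = 0.0117, kept in 10 of 12 leave-one-out fits). The first of these held in each of the 12 fits that left out 1 library. Clu without sham replicate 4 had a log2 fold change of 1.76 ± 0.25 SE, edgeR adjusted p = 0.000355, at 14 days. Lcn2 had 10 to 38 counts per 3-day library against 2 to 4 per sham library and rose at 3 days (log2 fold change 2.34 ± 0.66 SE, edgeR adjusted p = 0.0223); that call was lost without 3-day replicate 2, 3-day replicate 3 or sham replicate 2 (adjusted p up to 0.0871). Lcn2 without sham replicate 4 had a log2 fold change of 2.22 ± 0.74 SE, edgeR adjusted p = 0.0438, at 3 days.

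**Figure D3:**
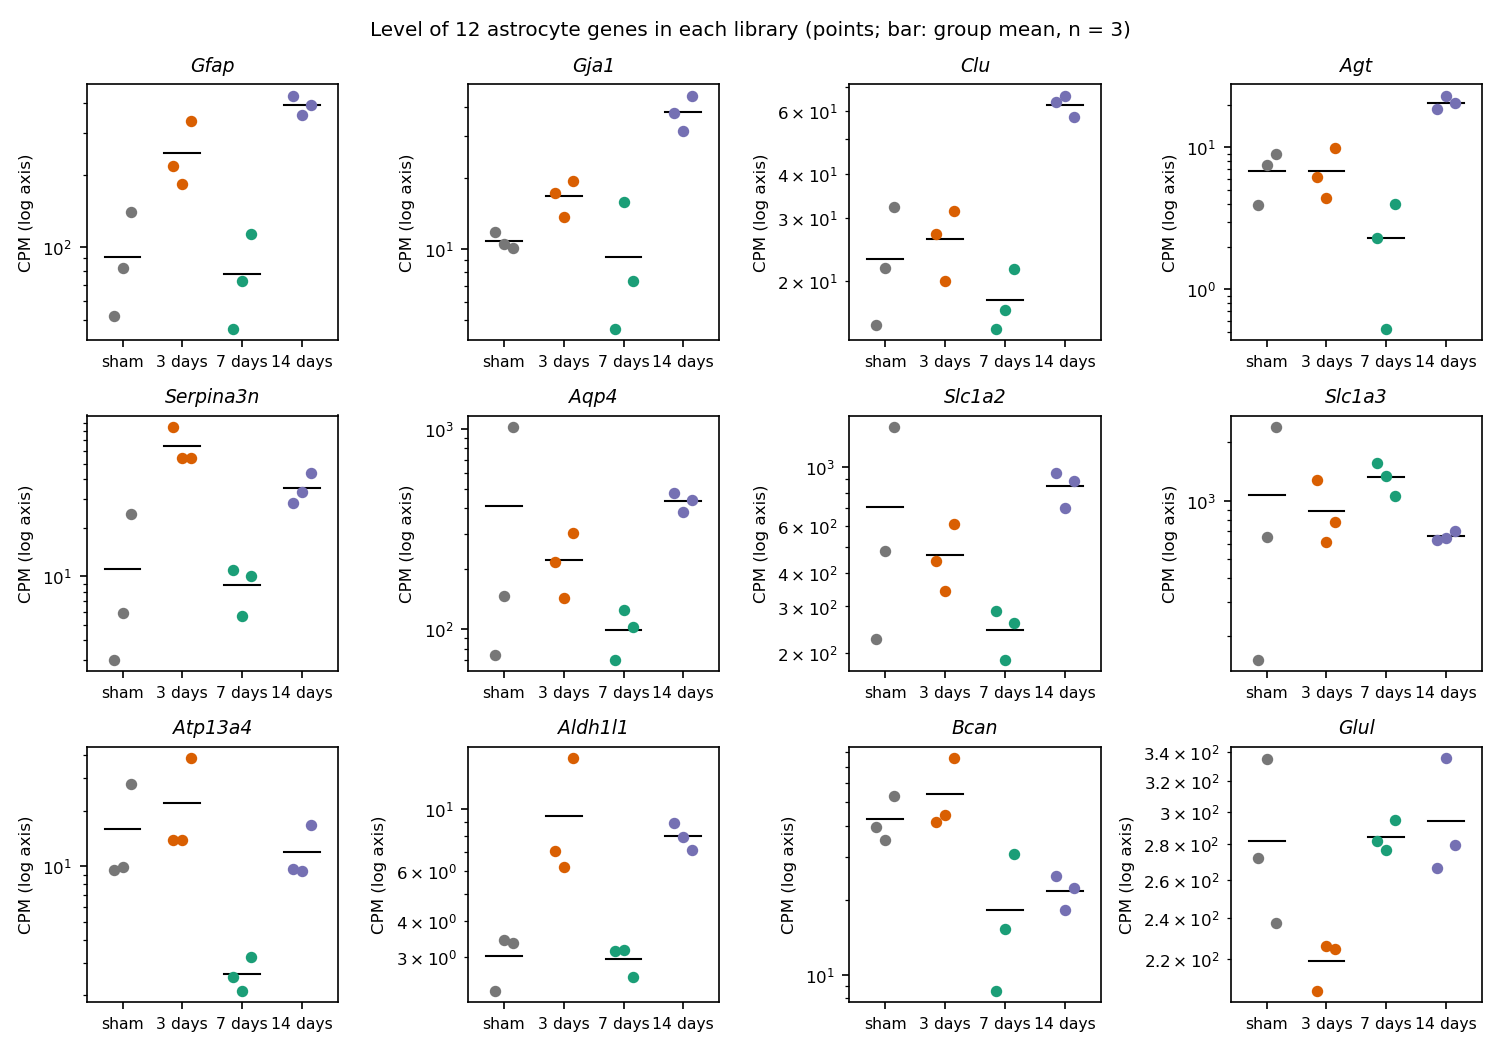
Level (CPM, log axis) of 12 of the genes in each library by group; points are libraries and bars are group means (n = 3). Gfap, Gja1, Clu and Agt are highest in all 3 libraries at 14 days, Serpina3n at 3 days, and Slc1a3 is the one of the 12 whose group mean is highest at 7 days.

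At 3 days against sham, the members that moved were Gfap, Aldh1l1, Lcn2 and Serpina3n, which rose, and Cldn10, which fell. The libraries of the 2 groups did not overlap for 5 genes in the higher direction (18.7% of all genes) and 3 in the lower (15.5%). The highest 3-day library for most of the genes, replicate 3, was also the highest for summed endothelial markers (854 CPM against 364 and 416 CPM) and fibroblast and pericyte markers (978 against 331 and 388 CPM). Without 3-day replicate 3, 1 gene rose, Serpina3n, and Cldn10 fell, when the calls over all genes numbered 1866, against 3695 with all libraries. Leaving out sham replicate 4, 8 rose (Sox9, Aqp4, Prex2 and Ncan in addition) and 2 fell (Glul in addition), with 4152 calls over all genes.

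At 7 days against sham, the 8 members that fell were Rorb, Slc1a2, Slc7a10, Slc4a4, Atp1b2, Atp13a4, Acsbg1 and Daam2, with log2 fold changes from -2.55 ± 0.53 to -1.04 ± 0.28 (SE). The libraries did not overlap for 9 genes in the lower direction (10.7% of all genes) and 0 in the higher (12.1%). Leaving out sham replicate 4, 3 genes fell, Rorb, Slc7a10 and Atp13a4, and 1 rose, Slc1a3, when the calls over all genes numbered 1342, against 1712 with all libraries. Without 7-day replicate 1, 2 fell (827 calls over all genes), and without 7-day replicate 3, 3 fell (1274 calls), whereas without sham replicate 2 there were 16 (3065 calls).

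The 8 members that rose at 14 days against sham were Sox9, Gfap, Mlc1, Gja1, Aldh1l1, Agt, Serpina3n and Clu, with log2 fold changes from 1.42 ± 0.40 to 2.10 ± 0.35 (SE). The libraries did not overlap for 10 genes in the higher direction (15.5% of all genes) and 2 in the lower (14.2%). Leaving out sham replicate 4, 14 rose, adding Slc1a2, Aqp4, Slc4a4, Atp1b2, Prex2 and Ncan, and 0 fell, when the calls over all genes numbered 2793, against 1811 with all libraries. Gfap, Gja1 and Clu rose in each fit with 1 library left out. They were the only 3 called without any 1 of the 14-day libraries, without sham replicate 2 or without sham replicate 3, with 701 to 1953 calls over all genes. Without 3-day replicate 1 there were 5 (1545 calls).

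**Figure D4:**
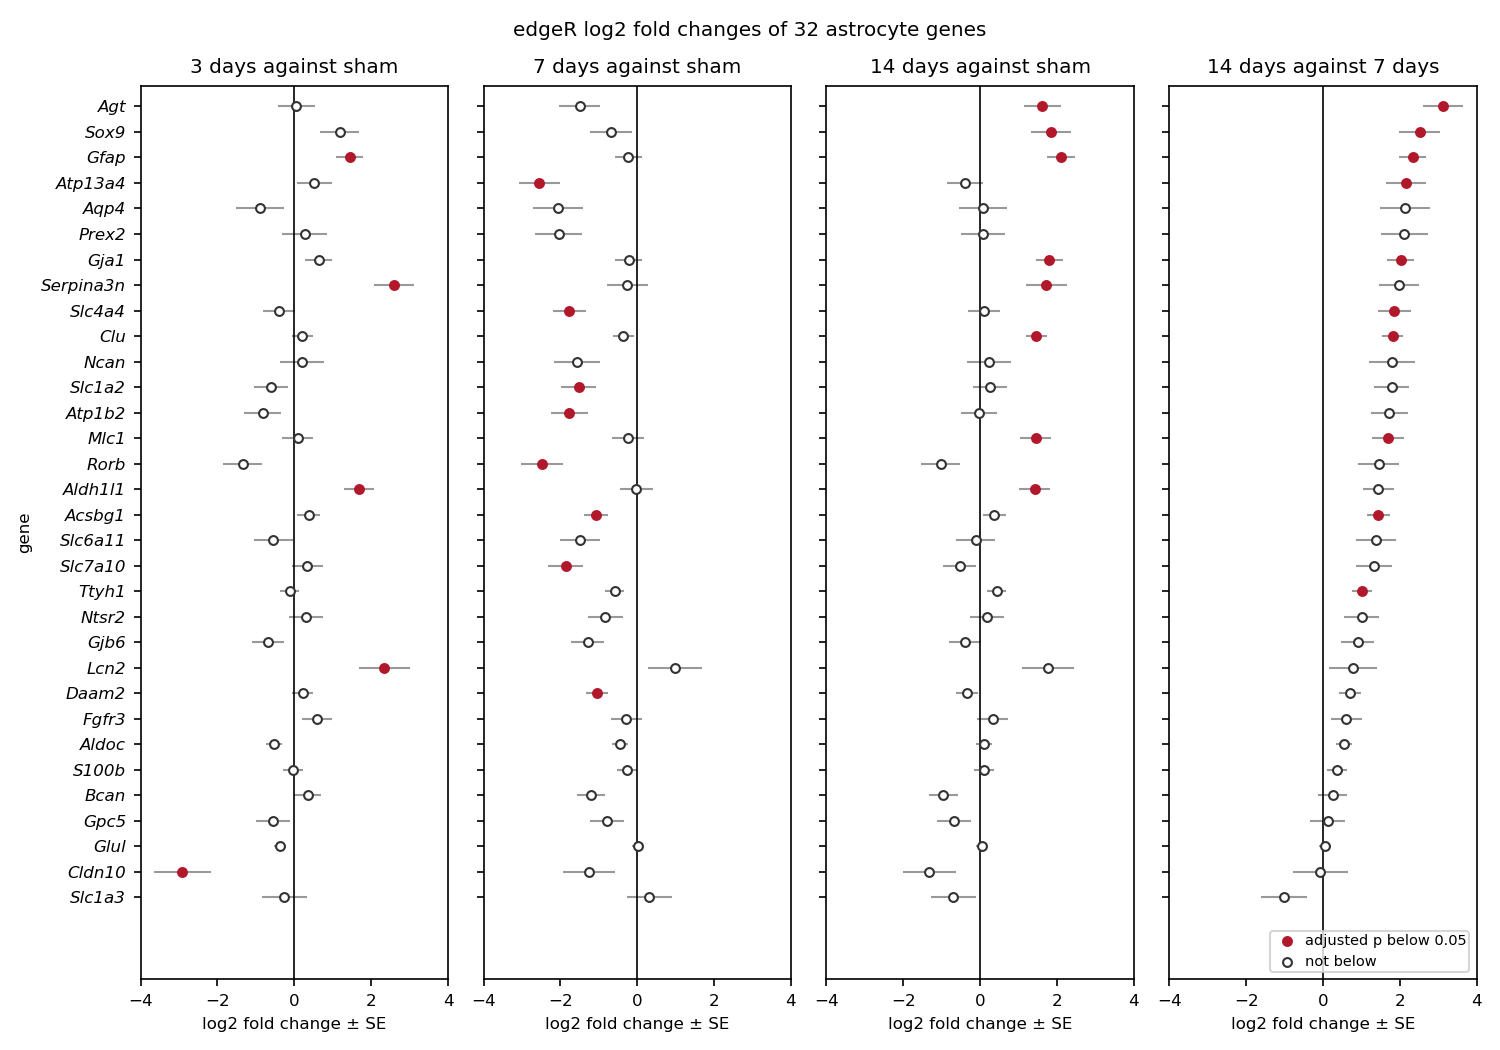
edgeR log2 fold change with its SE for the 32 tested genes in 4 comparisons, in the order of the change at 14 days against 7 days; filled points passed the threshold. At 14 days against 7 days 30 of 32 genes lie right of 0, and 10 of them passed.

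**Figure D5:**
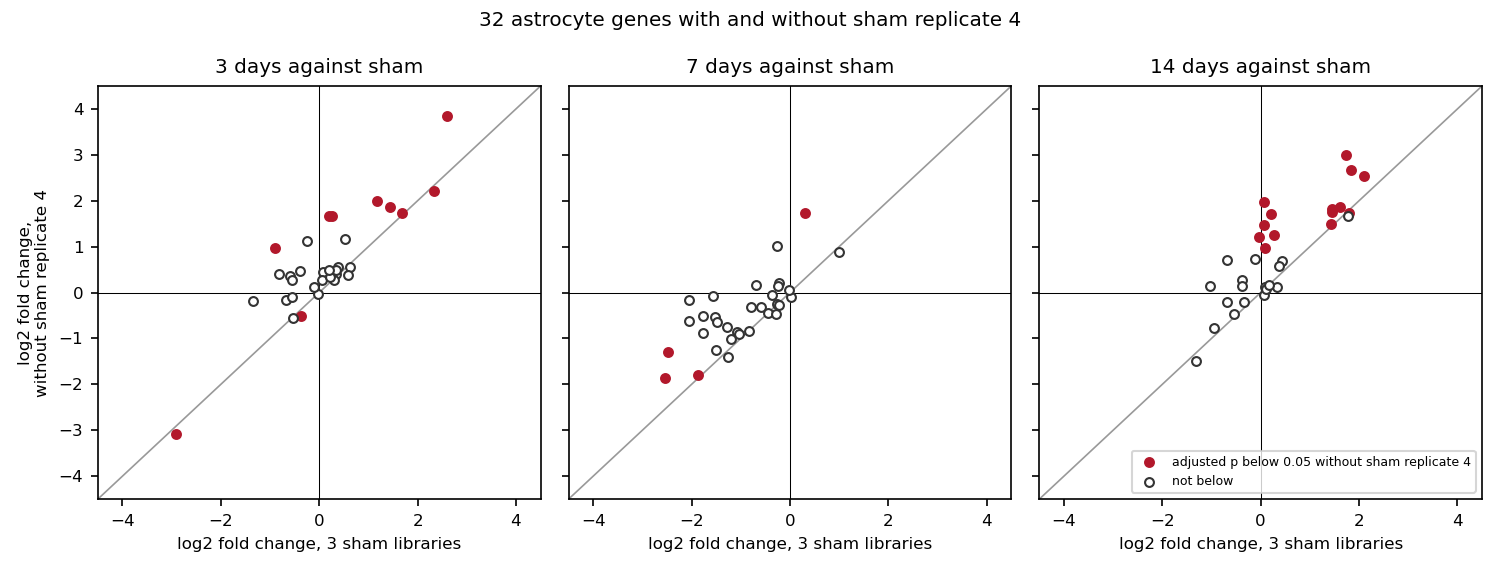
Log2 fold change of the 32 genes against sham with all 3 sham libraries (horizontal axis) and without sham replicate 4 (vertical axis), for 3, 7 and 14 days; filled points passed the threshold without that library. Most points lie above the diagonal; at 14 days 14 genes passed, against 8 with all libraries.

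Between times the sham libraries enter only through the filter, the scaling and the shared estimate of spread. At 7 days against 3 days the 11 members that fell were Sox9, Gfap, Slc7a10, Slc4a4, Atp13a4, Aldh1l1, Acsbg1, Prex2, Daam2, Bcan and Serpina3n. The libraries did not overlap for 18 genes in the lower direction (20.2% of all genes) and for 1, Glul, in the higher (19.5%). Without 3-day replicate 3, 3 of them fell, Slc7a10, Atp13a4 and Serpina3n, when the calls over all genes numbered 564, against 2466 with all libraries. Without 7-day replicate 1 there were 6 (954 calls over all genes), and without sham replicate 4 17 fell and 1 rose (4539 calls).

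The 10 members that rose at 14 days against 7 days were Sox9, Gfap, Mlc1, Slc4a4, Atp13a4, Ttyh1, Gja1, Acsbg1, Agt and Clu. The libraries did not overlap for 22 genes in the higher direction (14.0% of all genes) and for 1, Slc1a3, in the lower (16.7%). This was the comparison with the fewest calls in the whole table, and its calls rest on few libraries. Without 7-day replicate 1 or without 14-day replicate 1, 0 of the 32 genes passed, when 6 and 1 of all genes passed, against 404 with all libraries. Without 7-day replicate 3 the count was 1 (7 of all genes), without 14-day replicate 2 or 14-day replicate 3 it was 3 (34 and 33 of all genes), and without 3-day replicate 1 or 7-day replicate 4 it was 6 (231 and 301 of all genes). It was 18 without sham replicate 2 and 19 without sham replicate 4, fits in which calls over all genes also rose to 1167 and 1774. The members' median log2 fold change lay between 1.43 and 1.68 in all 12 of these fits, and 29 to 31 of 32 values were positive.

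Mlc1, Gja1 and Clu rose and Bcan fell at 14 days against 3 days. The libraries did not overlap for 12 genes in the higher direction (20.1% of all genes) and for 2, Bcan and Serpina3n, in the lower (23.0%). Without 3-day replicate 2 or without 14-day replicate 2, 0 of the 32 genes passed, when 753 and 479 of all genes passed, against 1349 with all libraries. Without 3-day replicate 1, 14-day replicate 1, 14-day replicate 3 or sham replicate 3, Clu alone rose and 0 fell (844, 450, 470 and 1291 of all genes), and without 3-day replicate 3 Mlc1 and Clu rose (435 of all genes). Without sham replicate 4, 9 rose and 2 fell (2627 of all genes).

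The summed level of astrocyte genes outside the list was also lowest at 7 days. Of 30 other astrocyte genes, 26 were tested; their summed level was 673, 996 and 1811 CPM in the sham libraries, 783, 722 and 1041 CPM at 3 days, 660.1, 663 and 645 CPM at 7 days and 1315, 1327 and 1273 CPM at 14 days. Of these 26, 4 rose and 1 fell at 14 days against 7 days, with a median log2 fold change of 1.19. At 7 days against 3 days 1 rose and 4 fell, with a median of -0.83. Against sham, 0 rose and 1 fell at 3 days, 0 rose and 5 fell at 7 days and 2 rose and 0 fell at 14 days. Sparcl1, a matrix protein of astrocytes and vessels, had 139, 244 and 435 CPM in sham, 114, 109.8 and 179.6 CPM at 3 days, 141, 105 and 120.5 CPM at 7 days and 439.9, 482 and 392 CPM at 14 days. Sparcl1 rose at 14 days against 7 days (log2 fold change 1.84 ± 0.32 SE, edgeR adjusted p = 0.0147). Tril, a partner of Toll-like receptors, had 3.94, 5.94 and 9.52 CPM in sham, 12.98, 9.40 and 16.3 CPM at 3 days, 3.35, 6.16 and 4.55 CPM at 7 days and 16.1, 14.3 and 20.1 CPM at 14 days. Tril rose likewise (log2 fold change 1.83 ± 0.36 SE, edgeR adjusted p = 0.0226). Acss1, a mitochondrial acetyl-CoA synthetase, had 114, 91.4 and 100.5 CPM in sham, 88.8, 81.3 and 77.3 CPM at 3 days, 126, 116 and 121 CPM at 7 days and 66.2, 70.8 and 84.7 CPM at 14 days. Acss1 fell at 14 days against 7 days (log2 fold change -0.71 ± 0.16 SE, edgeR adjusted p = 0.0342). Without 14-day replicate 1 only 1 of all genes passed in this comparison, so Sparcl1, Tril and Acss1 were not all called in that fit. Etnppl, an enzyme of phosphoethanolamine breakdown, had 13.8, 11.9 and 25.5 CPM in sham, 5.92, 5.92 and 12.1 CPM at 3 days, 0.419, 5.99 and 2.94 CPM at 7 days and 7.08, 6.08 and 5.79 CPM at 14 days. Etnppl fell at 7 days against sham (log2 fold change -2.41 ± 0.56 SE, edgeR adjusted p = 0.0173). That fold change is given with all sham libraries only, and sham replicate 4 was the highest of them.

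Genes of reactive glia that other injured cells also use mostly rose at 3 days. Of 15 such genes, 9 rose and 2 fell at 3 days against sham, with a median log2 fold change of 2.08, and 0 rose and 8 fell at 7 days against 3 days, with a median of -1.65. By edgeR 0 of 15 changed at 14 days against 7 days, with a median of 0.62. Thbs1, a secreted thrombospondin, had 2.88, 5.49 and 4.20 CPM in sham, 234, 243 and 104 CPM at 3 days, 9.01, 20.4 and 15.4 CPM at 7 days and 16.4, 19.9 and 16.7 CPM at 14 days. Thbs1 rose at 3 days against sham (log2 fold change 5.55 ± 0.40 SE, edgeR adjusted p = 1.46e-06). Nes, the filament nestin, had 9.54, 10.1 and 18.2 CPM in sham, 69.01, 90.3 and 115 CPM at 3 days, 60.1, 34.5 and 42.1 CPM at 7 days and 60.7, 66.4 and 81.1 CPM at 14 days. Nes rose at 14 days against sham (log2 fold change 2.48 ± 0.30 SE, edgeR adjusted p = 0.000153). Vim, the filament vimentin that many cells hold, had 20.9, 20.4 and 98.8 CPM in sham, 275, 245 and 285 CPM at 3 days, 26.8, 71.3 and 60.6 CPM at 7 days and 139, 141 and 138 CPM at 14 days. Vim rose at 3 days against sham (log2 fold change 2.55 ± 0.49 SE, edgeR adjusted p = 0.00243). Cd44, a hyaluronan receptor of many cells, had 15.3, 13.3 and 41.99 CPM in sham, 83.4, 85.3 and 74.1 CPM at 3 days, 28.5, 35.4 and 47.9 CPM at 7 days and 63.1, 49.3 and 59.5 CPM at 14 days. Cd44 rose at 3 days against sham (log2 fold change 1.80 ± 0.34 SE, edgeR adjusted p = 0.00242). The fold changes of Thbs1, Nes, Vim and Cd44 against sham are given with all sham libraries only. Sham replicate 4 was the highest sham library for Nes, Vim and Cd44.

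Endothelial markers, and likewise fibroblast and pericyte markers, had their lowest mean summed level at 7 days. None of the 33 genes is in a marker list of another cell type. The summed level of 12 endothelial markers was 97.03, 109.7 and 331 CPM in the sham libraries, 364, 416 and 854 CPM at 3 days, 94.7, 89.1 and 111 CPM at 7 days and 488, 465 and 476 CPM at 14 days. Against sham 11 of these 12 rose and 0 fell at 3 days, 0 rose and 2 fell at 7 days, and 5 rose and 1 fell at 14 days. At 7 days against 3 days 0 rose and 11 fell, and at 14 days against 7 days 9 rose and 0 fell. The summed level of 12 fibroblast and pericyte markers was 69.8, 85.7 and 728 CPM in the sham libraries, 331, 388 and 978 CPM at 3 days, 42.3, 147 and 113 CPM at 7 days and 740.2, 798 and 675 CPM at 14 days, with 4 of 12 falling at 7 days against 3 days and 3 rising at 14 days against 7 days. Both sums were low in all 7-day libraries and high in all 3-day and 14-day libraries, and for both sham replicate 4 was far above the other 2 sham libraries. No endothelial, fibroblast or pericyte marker was at 0 in all 3 libraries of a group.

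By edgeR 0 of 15 neuron, 12 oligodendrocyte, 10 oligodendrocyte precursor and 12 microglia markers changed at 14 days against 7 days, with medians of 0.35, 0.38, 0.40 and -0.41 on the log2 scale. The summed neuron markers were 1728, 1921 and 3468 CPM in the sham libraries, 814, 979 and 916 CPM at 3 days, 1144, 1253 and 964 CPM at 7 days and 1417, 1735 and 1210 CPM at 14 days, and 10, 9 and 5 of 15 fell against sham at 3, 7 and 14 days. The summed oligodendrocyte markers were 985, 1844 and 1952 CPM in the sham libraries, 1536, 1058 and 1100 CPM at 3 days, 1016, 680.5 and 924 CPM at 7 days and 1229, 1519 and 1040 CPM at 14 days, and 6 of 12 fell and 0 rose at 7 days against sham. The 10 oligodendrocyte precursor markers, of which 4 fell at 7 days against 3 days, summed to 192, 213 and 396 CPM in the sham libraries, 319, 232 and 304 CPM at 3 days, 152, 171 and 185 CPM at 7 days and 194, 239.6 and 202 CPM at 14 days. All 10 were found in every library, and Vcan among them is also in the list of monocyte and macrophage markers below. The summed microglia markers were 7258, 5640 and 5659 CPM in the sham libraries, 4539, 4559 and 3837 CPM at 3 days, 6678, 6090 and 5282 CPM at 7 days and 4425, 5383 and 4626 CPM at 14 days, and 5 of 12 rose and 0 fell at 7 days against 3 days. Every 7-day sum of microglia markers was above every 3-day one. Ependymal cells share several astrocyte genes, and 3 of 8 of their markers were tested, with summed levels of 7.87, 6.86 and 24.4 CPM in the sham libraries, 12.5, 12.7 and 54.6 CPM at 3 days, 5.66, 9.51 and 7.09 CPM at 7 days and 21.6, 22.4 and 25.6 CPM at 14 days; Tmem212 was at 0 in all libraries of sham, 3 days and 7 days, and Dynlrb2 in all of 3 days. Of 10 markers of monocytes and blood-derived macrophages 7 were tested, and 4 rose at 3 days against sham, 4 fell at 7 days against 3 days and 1 rose at 14 days against 7 days; their summed level was 140.2, 133 and 193 CPM in the sham libraries, 1635, 1661 and 1185 CPM at 3 days, 269, 504 and 620.1 CPM at 7 days and 803, 843 and 716 CPM at 14 days. The part of these cells in the astrocyte values was not tested.

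The members also differed in how much pools of 1 group varied. Their median coefficient of variation was 40.8% in the sham group, 37.0% at 3 days, 30.8% at 7 days and 12.6% at 14 days. Over all genes tested it was 34.5%, 17.4%, 24.4% and 13.7% in the same order. The 14-day libraries were thus close to each other for these genes, while the summed level averaged 3672 ± 3067 CPM in sham, 3027 ± 660.1 CPM at 3 days, 2504 ± 172 CPM at 7 days and 3854 ± 184 CPM at 14 days (SD, n = 3 each).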

How the data were processed

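Nuclear RNA of 12 libraries was measured by paired-end sequencing. Raw counts per gene and RPKM values were deposited by the authors; per the submitters' processing notes counts came from featureCounts 1.4.6-p3 on build GRCm38 (mm10). Which aligner and strand setting were used is not given in the sources used here. Groups come from the labels, and 0 columns were unmapped. Counts were fitted in 1 model of 4 groups with edgeR 4.0.16 in R 4.3.3 (TMM scaling, filterByExpr, quasi-likelihood F test, Benjamini-Hochberg adjustment, threshold 0.05). The adjustment ran over 18451 genes, which held 99.57% of counts. Log2 fold changes used edgeR's default prior count, and 2 counts were added before the logs used to correlate libraries. SE is the log2 fold change over the root of F. CPM values were TMM-scaled, and RPKM as deposited was used only to set genes side by side. The common biological coefficient of variation was 0.271. Members and gene lists were chosen with earlier results of these data known. Values in every library are given for members past the threshold in any difference or against sham, up to 20 by smallest p, and for the 2 members of each role with the highest mean RPKM; other members are given by range or counts. Up to 4 genes of each list of other astrocyte and reactive genes are named by smallest p. Alternatives were RLE scaling, DESeq2 1.42.0, other filters, a replicate block, only the libraries compared, and each library left out. The method was tested on simulated data. Promoters are RefSeq's (GRCm38.p6), and exon overlaps come from GENCODE on GRCm38. Total counts of 4003480 to 10670804 make 3 counts equal 0.288 to 0.840 CPM.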

Additional observations from a re-analysis of the deposited data

Results flagged for a closer look

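For 25 values the effect of injury against the same sham libraries differed between 2 time points by edgeR's direct test of one time against the other. Between 7 days and 3 days 11 genes differed, all lower at 7 days: the log2 fold changes were -1.86 for Sox9, -1.67 for Gfap, -2.21 for Slc7a10, -1.38 for Slc4a4, -3.07 for Atp13a4, -1.70 for Aldh1l1, -1.44 for Acsbg1, -2.31 for Prex2, -1.26 for Daam2, -1.55 for Bcan and -2.85 for Serpina3n. Between 14 days and 7 days 10 genes differed, all higher at 14 days: 2.52 for Sox9, 2.33 for Gfap, 1.69 for Mlc1, 1.86 for Slc4a4, 2.16 for Atp13a4, 1.01 for Ttyh1, 2.02 for Gja1, 1.44 for Acsbg1, 3.12 for Agt and 1.82 for Clu. Between 14 days and 3 days 4 genes differed: 1.36 for Mlc1, 1.17 for Gja1, -1.30 for Bcan and 1.25 for Clu. Adjusted p-values ran from 0.00323 (Atp13a4, 7 days against 3 days) to 0.0495 (Mlc1, 14 days against 3 days). Groups of 3 libraries are too small for a test of single outlying libraries.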

How the results depend on the processing

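Of 46 called values, 0 changed direction in any alternative. All 46 were called under RLE scaling, with no filter on low counts and with DESeq2. The stricter filter lost 2 of the 42 calls it could test, the replicate block 3 and fits of only the libraries compared 12. Calls that held in each leave-one-out fit and each other alternative that tested them numbered 9. At 14 days against sham they were Gfap, Gja1 and Clu, at 3 days against sham Cldn10 and Serpina3n, and at 7 days against sham Atp13a4. At 7 days against 3 days they were Slc7a10, Atp13a4 and Serpina3n. Cldn10 and Slc7a10 lay below the stricter filter, so their calls were not tested in that alternative. Of 75 values against sham that were not called, 39 changed sign in some alternative, 20 of them without sham replicate 4.

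Counts of called genes at 3 days against sham were 10 with no filter and 3 with the stricter one, and 2 to 10 with 1 library left out. At 7 days against sham they were 15 with no filter, 1 with only the libraries compared, and 2 to 16 with 1 library left out. At 14 days against sham they were 4 with only the libraries compared and 3 to 14 with 1 left out. At 7 days against 3 days they were 20 with no filter and 3 to 18 with 1 left out, at 14 days against 7 days 20 with no filter, 21 with only the libraries compared and 0 to 19 with 1 left out, and at 14 days against 3 days 10 with no filter, 14 with only the libraries compared and 0 to 11 with 1 left out. Genes with any difference numbered 13 to 25 with 1 left out. With the replicate number as a block, 19 genes were called at 7 days against 3 days and 19 at 14 days against 7 days. For the other filters, the libraries compared alone and the replicate block, calls over all genes are not set beside these counts. The counts from those alternatives therefore cannot tell a change in the astrocyte genes from a change over all genes. The 13 pairs of libraries with the same number correlated at -0.305 to 0.067, so the numbers are not taken to pair the libraries. The causes were not tested.

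The summed level, by the same libraries left out, ran from 2758 to 3395 CPM at 3 days, 2416 to 2589 CPM at 7 days, 3795 to 3960 CPM at 14 days and 1933 to 4829 CPM in sham. It was 2136 CPM at 3 days, 1181 CPM at 7 days and 3197 CPM at 14 days without Slc1a3, an alternative chosen after seeing the data, and 4061 CPM at 14 days without TMM scaling. With 3 libraries a group, depth limits Cldn10, Lcn2 and Steap4 most, at 0 to 38 counts per library.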
